A study of Mus musculus with 2 samples.

Results

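The genes described are *Jag1*, *Notch2*, *Hes1*, *Sox9*, *Sox4*, *Epcam*, *Cd24a*, *Krt7* and *Krt19*, 9 of the 32285 genes counted in liver nuclei by snRNA-seq. They were chosen by symbol, as genes of bile duct cells (cholangiocytes) and of the Notch pathway that hepatocytes are known to switch on when they take on biliary features. In Notch signaling a ligand such as JAG1 on a neighboring cell binds a receptor such as NOTCH2, whose freed intracellular part joins RBPJ on DNA and raises targets such as *Hes1*. Together with the factors SOX9 and SOX4 the pathway forms the bile ducts in development, and in injured liver hepatocytes can acquire part of the same program. EPCAM and CD24 are surface proteins, and KRT7 and KRT19 keratins, of mature biliary epithelium.

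Nuclei came from livers of male C57BL6/J mice that from an age of 10 to 12 weeks ate for 5 months a diet that causes MASH (metabolic dysfunction-associated steatohepatitis), in which fat gave 40 and fructose 20 of every 100 kcal and cholesterol made up 2%. There were 2 libraries, 1 labelled Flox (*Themis* flox/flox) and 1 labelled HKO (*Themis* Alb-Cre, the floxed line crossed with Cre under the albumin promoter, which acts in hepatocytes). Each library pooled liver from several mice, whose nuclei were sorted together and cannot be assigned to an animal. The title of the Flox-labelled library also carries the word WT, and its group was taken from the genotype. With 1 library per genotype there was no replicate and no test. Intervals are at the 95% level and cover counting error only, and the genotype cannot be told apart from any other difference between the libraries. Values are in CPM, the UMIs of a gene per 1000000 UMIs of the summed nuclei, and pairs of values give the Flox-labelled library first.

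*Themis*, the targeted gene, was examined first. Its level was 162 CPM in Flox-labelled hepatocytes (7505 UMIs) and 247 CPM in HKO-labelled hepatocytes (6824 UMIs). The ratio of these levels was 1.52 (interval 1.47 to 1.57). The counts therefore did not show a lower level in the library labelled HKO, and 3′ counts do not tell whether a transcript lacks a deleted part. The filters left 8659 and 9801 nuclei. Their median depth was 5959 and 1971 UMIs, and 27 barcodes occurred in both libraries. Cluster names stand for a resemblance. The cholangiocyte cluster held 135 and 546 nuclei, had all 9 of its markers raised, and 97.2% of its nuclei had a UMI of *Pkhd1*, *Fgfr3* or *Rassf9*. Hepatocytes numbered 5822 and 4475 and formed 2 clusters, each with 8 of 9 markers raised, and 39.6% and 50.1% of the nuclei of these clusters had a UMI of those 3 genes. The members were kept out of the features used for clustering.

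Among the genes of the Notch pathway, the ligand gene *Jag1* (chromosome 2, 137081456 to 137116644, minus strand, GRCm38) was highest in cholangiocytes, at 164 CPM (interval 117 to 222) and 263 CPM (228 to 301). Hepatic stellate cells (HSCs) had 143 and 148 CPM, so that their interval overlapped that of cholangiocytes in the Flox-labelled library (125 to 163) but not in the HKO-labelled one (131 to 167). Endothelial nuclei followed with 55.9 and 88.5 CPM, hepatocytes with 12.8 and 15.2 CPM, and macrophages with 5.62 and 9.32 CPM. The intervals of hepatocytes and macrophages overlapped in the HKO-labelled library (13.8 to 16.7 against 5.61 to 14.6 CPM) but not in the Flox-labelled one (11.8 to 13.9 against 2.26 to 11.6 CPM).

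The receptor gene *Notch2* (chromosome 3, 98013527 to 98150361, plus strand) was spread over more types. B cells had 219 and 243 CPM from 18 UMIs in each library, where the receptor is known to guide marginal zone B cells. Cholangiocytes had 136 and 102 CPM, and their interval overlapped that of B cells in the Flox-labelled library only. Macrophages had 74.6 and 67.7 CPM and T cells 64.6 and 47.2 CPM, with overlapping intervals. Lower levels were found in HSCs, with 31.8 and 24.2 CPM, in hepatocytes, with 27.2 and 33.1 CPM, and in endothelial nuclei, with 12.6 and 7.83 CPM. HSCs and hepatocytes were neighbors whose intervals overlapped in both libraries. A cluster left unnamed because it carried markers of dendritic cells and of neutrophils had 200.5 and 142 CPM.

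The target gene *Hes1* (chromosome 16, 30064384 to 30067796, plus strand), a transcriptional repressor, had similar levels in several types. Cholangiocytes (116 and 147 CPM), HSCs (114 and 126 CPM) and endothelial nuclei (114 and 131 CPM) could not be ordered, since their intervals overlapped. Macrophages had 83.4 and 58.4 CPM, and in the Flox-labelled library their interval (68.2 to 101 CPM) reached those of the 3 higher types. Hepatocytes had 51.0 and 58.1 CPM, with an interval that overlapped that of macrophages in the HKO-labelled library only. T cells, B cells and mesothelial nuclei had 0 to 2 UMIs of *Hes1*.

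*Sox9* (chromosome 11, 112782224 to 112787760, plus strand), the biliary factor also found in hepatocytes next to the portal tract, was highest in cholangiocytes, followed by hepatocytes. Cholangiocytes had 376 and 413 CPM and hepatocytes 16.8 and 13.1 CPM. Levels were lower in HSCs, with 5.19 and 6.20 CPM, and the other named types had 0 to 3 UMIs each. Thinned to 1000 UMIs per nucleus, 1.76% and 1.37% of hepatocytes had a *Sox9* UMI (10.5% and 6.06% without thinning), against 0 of 661 and 0 of 536 endothelial nuclei, which allows up to 0.454% and 0.560% (median depths 7458.5 and 5836 UMIs in hepatocytes, 1312.5 and 948 UMIs in endothelial nuclei). Cholangiocyte nuclei had one in 26.9% and 27.1% after thinning and in 40.7% and 35.4% before it. The share expected over all possible thinnings was 1.64% and 1.31% in hepatocytes. In HSCs it was 0.476% and 0.595% (median depths 1771 and 1408 UMIs).

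*Sox4* (chromosome 13, 28948919 to 28953713, minus strand), a factor of progenitor cells that acts beside SOX9 in bile duct formation, was at 236 and 253 CPM in cholangiocytes. Endothelial nuclei had 50.5 and 74.4 CPM and HSCs 40.3 and 42.3 CPM, with intervals that overlapped in the Flox-labelled library only. Hepatocytes had 0.584 CPM (27 UMIs) and 6.14 CPM (170 UMIs), and macrophages 1.60 and 4.90 CPM (2 and 10 UMIs). The intervals of hepatocytes and macrophages overlapped in both libraries, at 5.25 to 7.14 against 2.35 to 9.02 CPM in the HKO-labelled one.

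The surface genes were found above all in cholangiocytes and, for *Cd24a*, in B cells. *Epcam* (chromosome 17, 87635979 to 87651129, plus strand) was at 787 and 369 CPM in cholangiocytes and at 0.324 and 0.434 CPM in hepatocytes (15 and 12 UMIs). The other named types had 0 to 5 *Epcam* UMIs in each library. *Cd24a* (chromosome 10, 43578284 to 43584265, plus strand) was at 176 and 155 CPM in cholangiocytes and at 146 and 121 CPM in B cells, which did not differ beyond counting error. Hepatocytes had 8 and 11 *Cd24a* UMIs, or 0.173 and 0.397 CPM.

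The keratin genes were sparse even in cholangiocytes. *Krt7* (chromosome 15, 101411043 to 101430313, plus strand) had 5 and 32 UMIs there (20.0 and 40.4 CPM), and *Krt19* (chromosome 11, 100140810 to 100148665, minus strand) had 2 and 16 UMIs (7.99 and 20.2 CPM). The mesothelial cluster, with 14 nuclei in each library, had 2 and 5 *Krt7* UMIs and 3 and 0 *Krt19* UMIs. Hepatocytes had 2 and 0 *Krt7* UMIs, and a count of 0 in the HKO-labelled ones allows a level of up to 0.108 CPM (3 counts). They had 2 and 1 *Krt19* UMIs. *Krt7*, *Krt19*, *Epcam* and *Cd24a* thus came to at most 15 UMIs each in either set of hepatocytes.

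**Figure D1:**
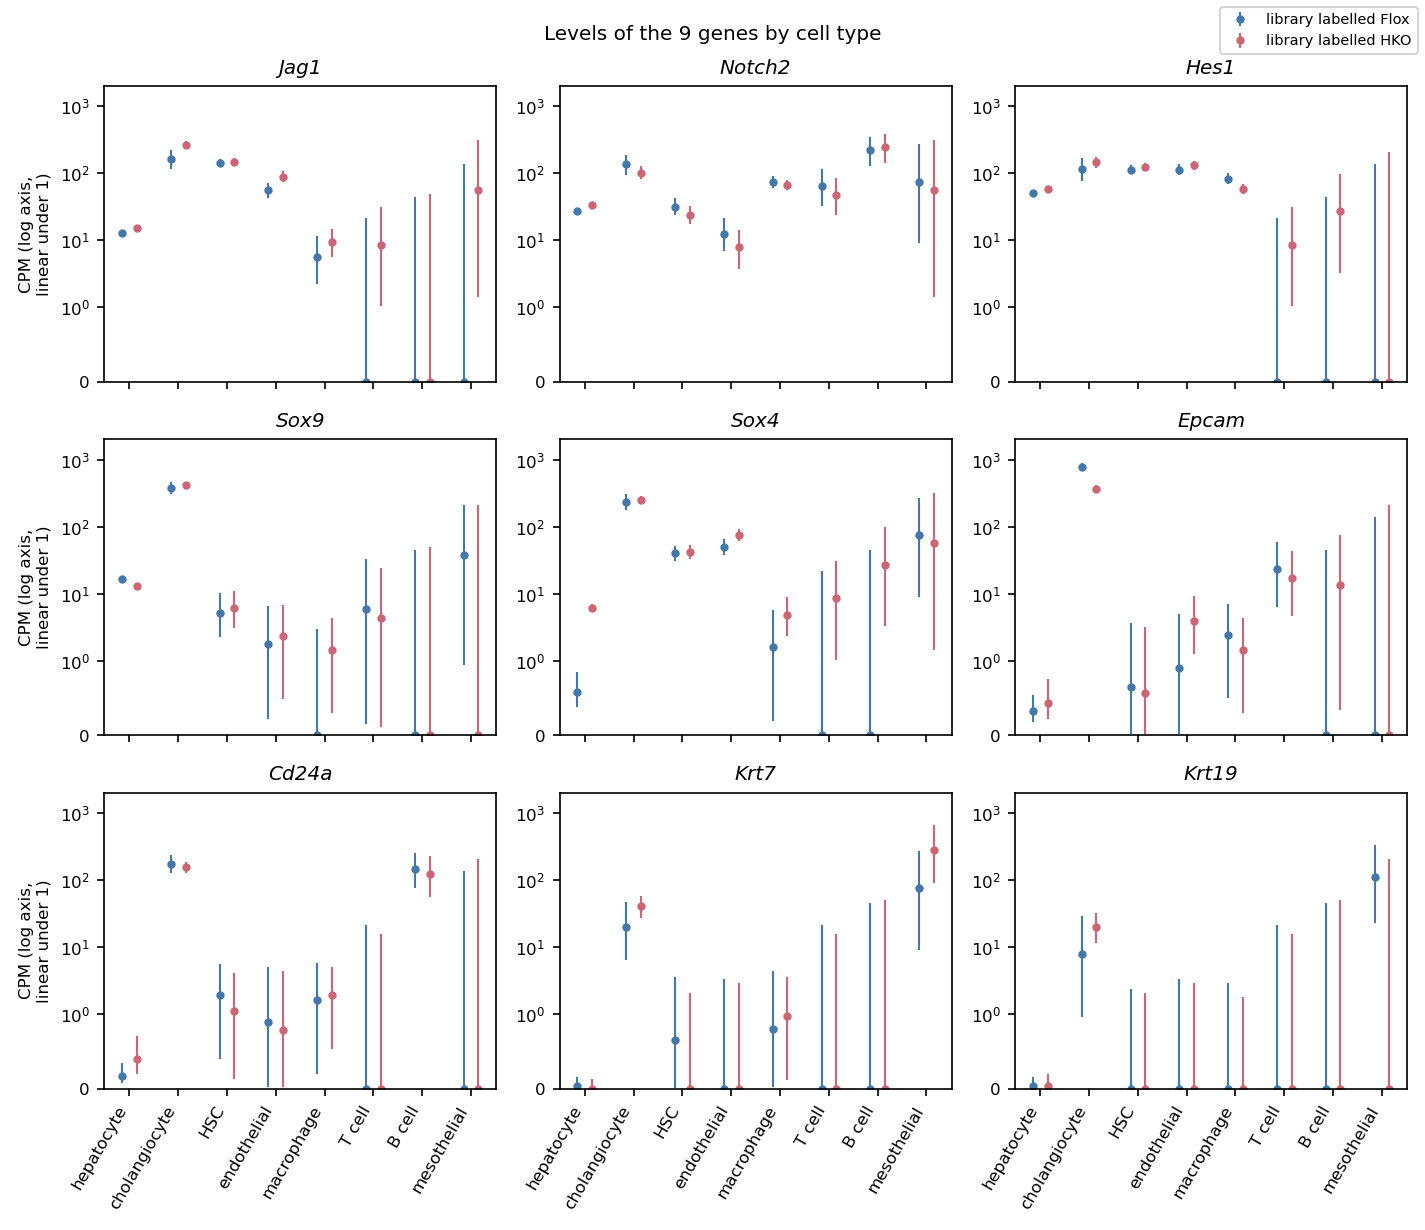
Level of each of the 9 genes (CPM, on an axis that is logarithmic above 1 and linear below) in the 8 named cell types, for the libraries labelled Flox and HKO. Points are summed nuclei and bars are exact Poisson 95% intervals. *Sox4* in hepatocytes is at 0.584 CPM in the Flox-labelled and 6.14 CPM in the HKO-labelled library, while *Epcam* in cholangiocytes is at 787 and 369 CPM.

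Between the libraries, *Sox4* in hepatocytes and *Epcam* in cholangiocytes were the members that differed by at least 2-fold among those with at least 50 UMIs over both libraries. In hepatocytes 5 of the 9 members had that many UMIs. The ratio of HKO-labelled to Flox-labelled CPM was 10.5 for *Sox4* (interval 6.98 to 16.4), 1.22 for *Notch2* (1.12 to 1.33), 1.19 for *Jag1* (1.05 to 1.35), 1.14 for *Hes1* (1.07 to 1.21) and 0.783 for *Sox9* (0.689 to 0.888). With doublets kept, *Sox4* was at 1.06 and 7.07 CPM, a ratio of 6.67. Of the 5 members, 1 was at least 2-fold higher and none was 2-fold lower. Over the 13243 genes with enough UMIs, 4.23% were at least 2-fold higher and 4.13% at least 2-fold lower. The median log2 ratio was 0.23 over the 5 members and -0.02 over all of those genes.

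In cholangiocytes 7 members had at least 50 UMIs, 1 of them was at least 2-fold lower and none was 2-fold higher. Over 3849 genes the shares were 2.31% lower and 2.7% higher. *Epcam* fell from 787 CPM (197 UMIs) to 369 CPM (292 UMIs), a ratio of 0.469 (interval 0.390 to 0.565). Scaled by TMM factors in place of total UMIs its ratio was 0.503, just short of 2-fold. When cholangiocytes were instead all nuclei with at least 3 UMIs of *Pkhd1*, *Fgfr3* and *Rassf9*, of which 219 of 344 and 228 of 645 were in the hepatocyte clusters, *Epcam* was at 65.5 and 92.5 CPM, the opposite direction. *Jag1* had a ratio of 1.61 (1.14 to 2.30), with an interval above 1. *Hes1* (1.27), *Sox9* (1.10), *Sox4* (1.07), *Cd24a* (0.884) and *Notch2* (0.754) had intervals that included 1. *Krt7* and *Krt19* had 37 and 18 UMIs over both libraries, too few for a ratio.

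The share of cholangiocyte nuclei with an *Epcam* UMI was 63.7% and 35.2%, and 44.0% and 27.1% after thinning (134 and 446 nuclei, intervals 35.5% to 52.9% and 23.1% to 31.5%). The Flox-labelled cholangiocytes were the deeper, with a median of 1826 UMIs against 1371. The 9 hepatocyte markers summed to 2884 and 1504 CPM in cholangiocytes, and their part in the *Epcam* difference was not tested.

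**Figure D2:**
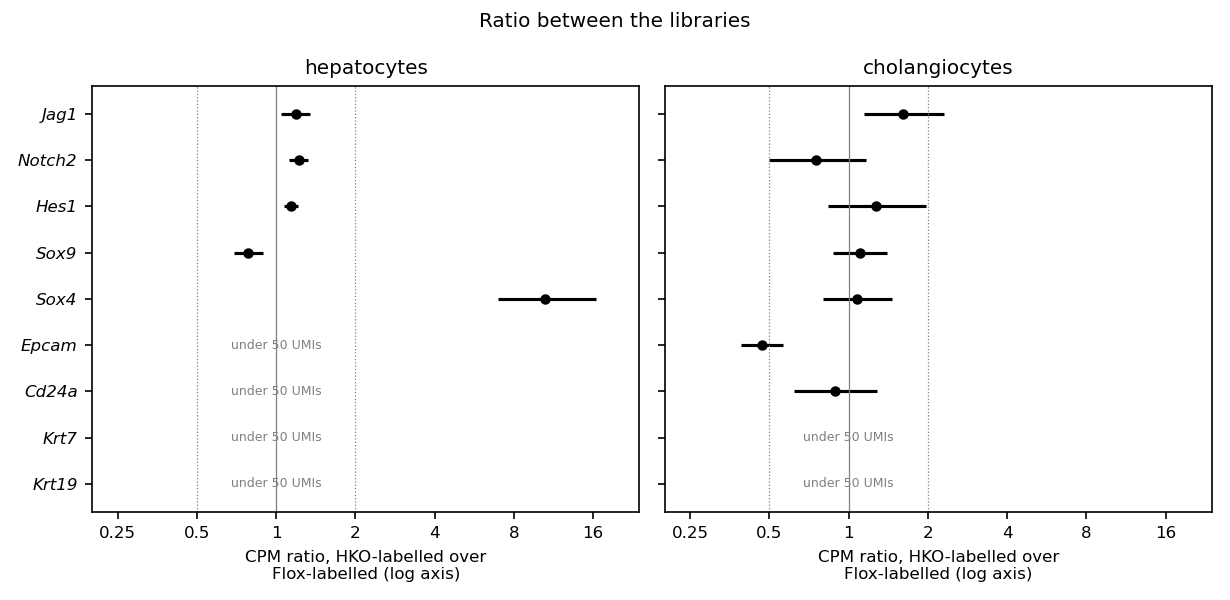
Ratio of HKO-labelled to Flox-labelled CPM (log axis) for each gene in hepatocytes and cholangiocytes, with exact conditional binomial 95% intervals. The solid line marks a ratio of 1 and the dotted lines 0.5 and 2, and genes with under 50 UMIs carry no point. *Sox4* in hepatocytes lies at 10.5 and *Epcam* in cholangiocytes at 0.469.

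The RefSeq promoters of these members (GRCm38.p6, 250 bases before to 50 after the start of the gene) are shown because they are those of the genes past 2-fold. Of the 9 members 5 had one in the table used, *Sox4*, *Krt7*, *Epcam*, *Notch2* and *Jag1*. Motifs were searched on both strands, and capitals mark the TEAD motif GGAATG.
*Sox4* promoter, chr13:28953650-28953949, minus strand: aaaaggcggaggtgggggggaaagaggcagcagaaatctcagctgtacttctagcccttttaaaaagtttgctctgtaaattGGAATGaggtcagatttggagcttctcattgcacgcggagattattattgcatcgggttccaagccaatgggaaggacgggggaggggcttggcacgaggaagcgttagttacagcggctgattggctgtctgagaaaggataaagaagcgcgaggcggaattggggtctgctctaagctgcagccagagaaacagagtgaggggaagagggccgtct
*Epcam* promoter, chr17:87635729-87636028, plus strand: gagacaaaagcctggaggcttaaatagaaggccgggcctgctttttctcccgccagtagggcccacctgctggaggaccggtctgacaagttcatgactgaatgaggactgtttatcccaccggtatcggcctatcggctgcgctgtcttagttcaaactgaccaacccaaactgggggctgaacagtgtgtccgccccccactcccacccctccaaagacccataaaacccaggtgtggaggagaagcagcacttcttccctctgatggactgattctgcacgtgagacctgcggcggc
The *Sox4* promoter held 1 TEAD motif, 168 bases before the start, and the other 4 held none. None of the 5 held the RBPJ motif or the AP-1 motif TGANTCA. Among all 32851 promoters of that length, 14.7% held the TEAD motif, 6.38% the RBPJ motif GTGGGAA and 7.81% the AP-1 motif. A match is a description of letters and not a bound site.

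*Sox4* in hepatocytes was found in few nuclei, with several UMIs in some of them. It was present in 23 of 5822 Flox-labelled hepatocytes (0.395%) and 104 of 4475 HKO-labelled ones (2.32%). At least 2 UMIs occurred in 2 and 31 nuclei, and the highest number in a nucleus was 4 and 9. In macrophages the highest numbers were 1 and 2. After thinning, 0.0345% and 0.516% of hepatocytes had a *Sox4* UMI (intervals 0.00417% to 0.124% and 0.328% to 0.774%). The share expected over all possible thinnings was 0.0674% and 0.629%, against 0.192% and 0.277% in macrophages, whose median depths were 2156 and 1341 UMIs against 7458.5 and 5836 in hepatocytes. The thinned interval of the HKO-labelled ones (0.0558% to 0.789%) overlapped that of hepatocytes.

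Genes of the types that carry *Sox4* give the level of their RNA in hepatocytes. HKO-labelled hepatocytes had 2.43% of the *Sox4* level of cholangiocytes, while they had 0.118% of the *Epcam* level, 0.256% of *Cd24a*, 0.0283% of *Rassf9* and 0.0353% of *Cftr*. Flox-labelled hepatocytes had 0.248% of cholangiocyte *Sox4*, 0.0412% of *Epcam* and 0.0202% of *Rassf9*. Against endothelial nuclei, hepatocyte *Sox4* was 1.16% and 8.26%, where the 8 endothelial markers summed were 0.261% and 0.255% and the highest of them 1.05% and 1.03%. Against HSCs it was 1.45% and 14.5%, where the 11 HSC markers summed were 0.178% and 0.266% and the highest 0.717% and 0.951%. The *Sox4* level of HKO-labelled hepatocytes was thus a larger share of that in each of these types than the genes set beside it. Of the other cholangiocyte markers, *Pkhd1* (22.1 and 39.9 CPM) and *Fgfr3* (56.2 and 70.2 CPM) were hepatocyte transcripts too, and the 9 markers summed to 93.9 and 132 CPM in hepatocytes, with *Cftr* at 0 UMIs in the Flox-labelled and 1 in the HKO-labelled ones. Subtracting cholangiocyte RNA from hepatocytes by the summed *Pkhd1*, *Fgfr3* and *Rassf9* left no *Sox4* in either library, and by *Rassf9* and *Cftr* it left 0.547 and 6.07 CPM. *Bicc1*, an RNA-binding protein gene, was at 751 and 940 CPM in cholangiocytes and 245 and 335 CPM in HSCs. Its level in hepatocytes was 0.584 and 4.37 CPM, with a ratio of 7.49 (4.90 to 11.8).

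The nuclei that held *Sox4* differed in what else they held. The 23 Flox-labelled hepatocytes with *Sox4* had 403 CPM of endothelial markers and 295 CPM of HSC markers, where the other Flox-labelled hepatocytes had 31.6 and 30.2 CPM. The 104 HKO-labelled ones had 32.8 CPM of endothelial and 36.0 CPM of HSC markers (21 and 23 UMIs), where the rest had 26.4 and 33.8 CPM. The 9 cholangiocyte markers were at 157 CPM in the Flox-labelled nuclei with *Sox4* and 93.7 CPM in the others, and at 227 and 129.7 CPM in the HKO-labelled ones with and without it, where 4 of the 9 were at 0 in the nuclei with *Sox4*. The part of this RNA in the *Sox4* level was not tested. *Rassf9* and *Cftr* had 3 UMIs in the Flox-labelled nuclei with *Sox4* and 0 in the HKO-labelled ones. *Sox9* was found in 2 of 23 and in 12 of 104 of these nuclei (8.70% and 11.5%), against 10.5% and 6.06% of all hepatocytes, and *Epcam* in 2 and 3 of them. The split by *Sox4* was made after its values were seen and is given with no test.

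In the library labelled HKO the *Sox4* level was higher in hepatocytes that also carried markers of disease-associated hepatocytes (daHep), an injury state known from diseased liver. The study names *Sox4* itself among the genes enriched in daHep, so a shared rise with the other markers is not a separate finding. Hepatocytes were split by how many of *Nrg1*, *Anxa2*, *Klf6*, *Jun* and *Gdf15* were detected after thinning. HKO-labelled hepatocytes had 3.60 CPM of *Sox4* with 0 of them (3244 nuclei), 9.54 CPM with 1 (979 nuclei) and 28.2 CPM with 2 or more (231 nuclei), a ratio of 7.84 (interval 5.17 to 11.7) between the last and the first. The 3 intervals (2.82 to 4.52, 7.23 to 12.4 and 20.0 to 38.5 CPM) did not overlap, but they take each UMI as independent, and a nucleus held up to 9. The share of nuclei with *Sox4* after thinning was 0.339%, 0.919% and 1.30% (11, 9 and 3 nuclei), with intervals that overlapped (0.169% to 0.606%, 0.421% to 1.74% and 0.269% to 3.75%). The Flox-labelled hepatocytes had 23, 3 and 1 *Sox4* UMIs in these classes, or 0.619, 0.364 and 1.18 CPM.

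The other members moved less over the same classes. In HKO-labelled hepatocytes the ratio of the class with 2 or more markers to that with 0 was 1.38 for *Notch2* (1.04 to 1.80), 1.43 for *Jag1* (0.943 to 2.10), 1.01 for *Hes1* (0.792 to 1.26) and 0.962 for *Sox9* (0.541 to 1.59). *Epcam*, *Cd24a*, *Krt7* and *Krt19* had 0 UMIs in those 231 nuclei, which allows a level of up to 2.17 CPM. The Flox-labelled ratios were 1.10 for *Notch2*, 1.43 for *Jag1*, 1.27 for *Sox9* and 1.41 for *Hes1*, with an interval above 1 for *Hes1* (1.07 to 1.82). Without hepatocytes that had a UMI of *Nrg1* or *Anxa2*, *Sox4* was at 0.515 and 2.98 CPM, a ratio of 5.79 from 76 UMIs in all, a comparison added after the values were seen.

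**Figure D3:**
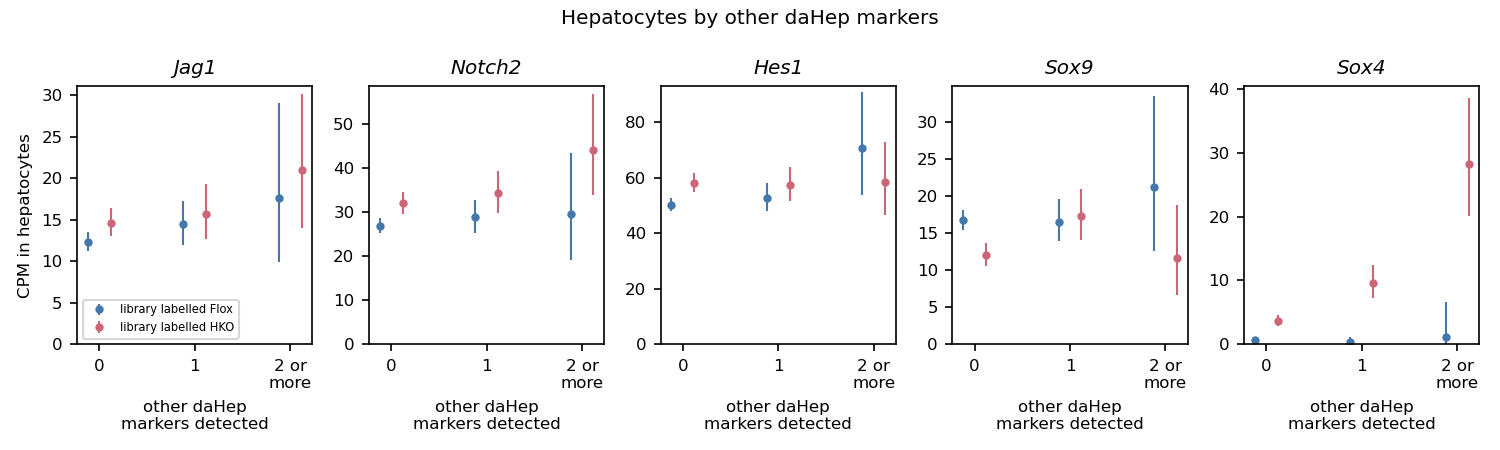
Level (CPM) of *Jag1*, *Notch2*, *Hes1*, *Sox9* and *Sox4* in hepatocytes by the number of other daHep markers detected after thinning, for both libraries, with exact Poisson 95% intervals. *Sox4* goes from 3.60 to 9.54 to 28.2 CPM in the HKO-labelled library, while *Sox9* is at 12.0, 17.2 and 11.6 CPM.

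Hepatocytes were next placed along the lobule by an index over 10 periportal (zone 1) and 10 pericentral (zone 3) genes, none of them a member. The index put 2415 and 1726 nuclei in zone 1, 479 and 585 in the middle and 2835 and 1739 in zone 3, and left 93 and 425 with too few zone UMIs unplaced. These are ranges of a score, and 6.02% and 10.2% of placed nuclei lay within 0.05 of a limit.

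*Sox9*, *Notch2* and *Hes1* were higher toward zone 1 in both libraries. *Sox9* was at 27.5, 13.5 and 8.27 CPM in zone 1, the middle and zone 3 of the Flox-labelled library, and at 21.9, 8.04 and 2.38 CPM in the HKO-labelled one. Its ratio of zone 3 to zone 1 was 0.301 (0.253 to 0.356) and 0.108 (0.0689 to 0.164). *Notch2* had 35.4 and 41.8 CPM in zone 1 and 21.1 and 23.0 CPM in zone 3, with ratios of 0.595 and 0.551. *Hes1* had 69.7 and 75.4 CPM in zone 1 and 36.2 and 43.5 CPM in zone 3, with ratios of 0.519 and 0.577.

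*Jag1* ran the other way. The Flox-labelled hepatocytes had 6.74 CPM in zone 1, 15.2 in the middle and 17.2 in zone 3, a ratio of 2.55 (2.08 to 3.15). The HKO-labelled ones had 13.1, 15.1 and 16.3 CPM, a ratio of 1.24 (0.992 to 1.55). In the Flox-labelled library 4 members had enough UMIs, 1 at least 2-fold higher in zone 3 (4.09% of 12298 genes) and 1 at least 2-fold lower (4.38%). In the HKO-labelled library 5 had enough, none 2-fold higher (3.2% of 11450 genes) and 2, *Sox9* and *Sox4*, 2-fold lower (2.77%).

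Within a zone, *Sox9* in the middle and zone 3 and *Jag1* and *Sox4* in zone 1 moved by more than 1.5-fold between the libraries. They were the only such members with at least 50 UMIs. The share of all genes past this limit within a zone was not counted, so these values are a description only. *Sox9* in zone 3 had 189 and 25 UMIs, a ratio of 0.288 (0.182 to 0.438), against 0.597 (0.377 to 0.930) in the middle and 0.798 (0.684 to 0.929) in zone 1. *Jag1* in zone 1 had 125 and 153 UMIs, a ratio of 1.95 (1.53 to 2.49), against 0.946 (0.786 to 1.14) in zone 3. *Sox4* in zone 1 had 10 and 111 UMIs, a ratio of 17.6 (9.25 to 37.8), while zone 3 had 13 and 19 UMIs. The differences between zones were not tested, since each library was a single sample.

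**Figure D4:**
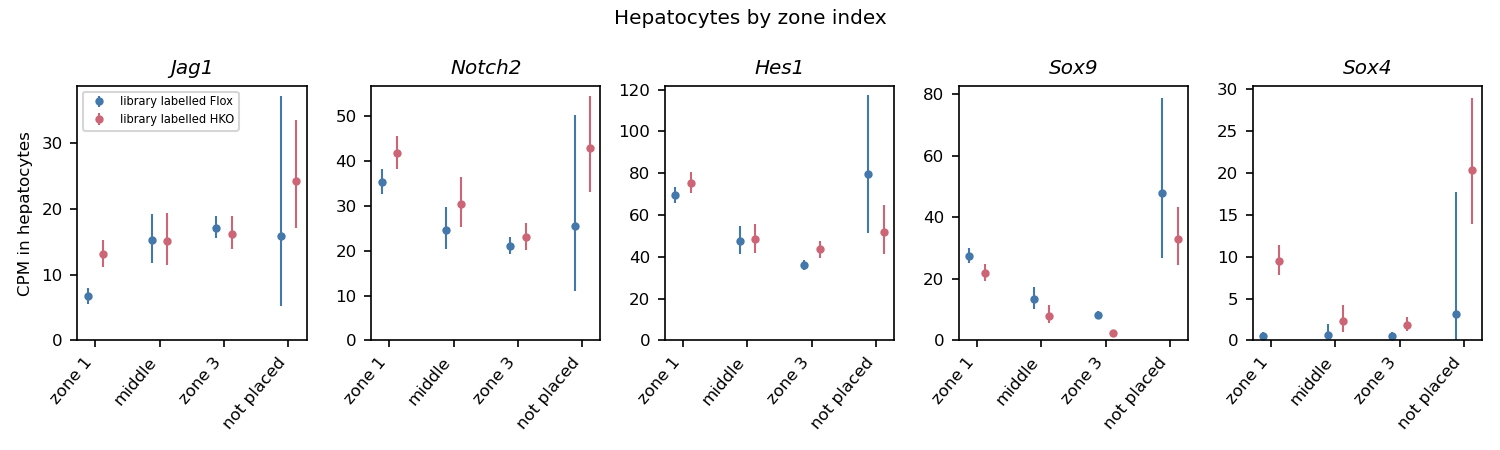
Level (CPM) of the 5 members with at least 50 UMIs in hepatocytes over both libraries, by zone index and library, with exact Poisson 95% intervals. *Sox9* falls from 27.5 to 8.27 CPM and from 21.9 to 2.38 CPM between zone 1 and zone 3, and the 425 unplaced HKO-labelled nuclei have 20.4 CPM of *Sox4*.

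The place of *Sox4* depended on how the lobule was divided. Taking the hepatocyte cluster led by pericentral genes (c0) and that led by periportal genes (c1) as zones, the HKO-labelled library had 6.42 CPM of *Sox4* in c0 and 5.68 CPM in c1, a ratio of 1.13 (0.817 to 1.58), where the index had given 0.190 (0.110 to 0.311). By level, *Sox4* was highest in nuclei of c0 that the index put in zone 1 or left unplaced. Those in zone 1 held 60 of the 170 *Sox4* UMIs. The 310 HKO-labelled nuclei of c0 that the index put in zone 1 had 26.7 CPM (60 UMIs), the 243 unplaced nuclei of c0 had 22.9 CPM (24 UMIs), the 1416 nuclei of c1 in zone 1 had 5.41 CPM (51 UMIs) and the 1726 nuclei of c0 in zone 3 had 1.82 CPM (19 UMIs).

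Those 310 nuclei had 372 CPM of the pericentral *Cyp2e1* and 58.2 CPM of the periportal *Hal*, against 1306 and 4.31 CPM in c0 in zone 3, and 234.5 and 180.0 CPM in c1 in zone 1. They carried 290 CPM of *Nrg1*, where c0 in zone 3 had 45.8 CPM, c1 in zone 1 had 85.55 CPM and the unplaced nuclei of c0 had 320 CPM. The endothelial and HSC markers of the 310 nuclei were at 26.2 and 30.2 CPM, and those of all HKO-labelled hepatocytes at 26.5 and 33.9 CPM. The same class of the Flox-labelled library held 100 nuclei with 0 *Sox4* UMIs, which allows up to 3.20 CPM, and with 115 and 100.2 CPM of endothelial and HSC markers. *Sox9* stayed lower in c0 than in c1 in both libraries (ratios 0.384 and 0.238), and *Jag1* stayed higher (2.54 and 1.58). The division by both was made after the values were seen.

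**Figure D5:**
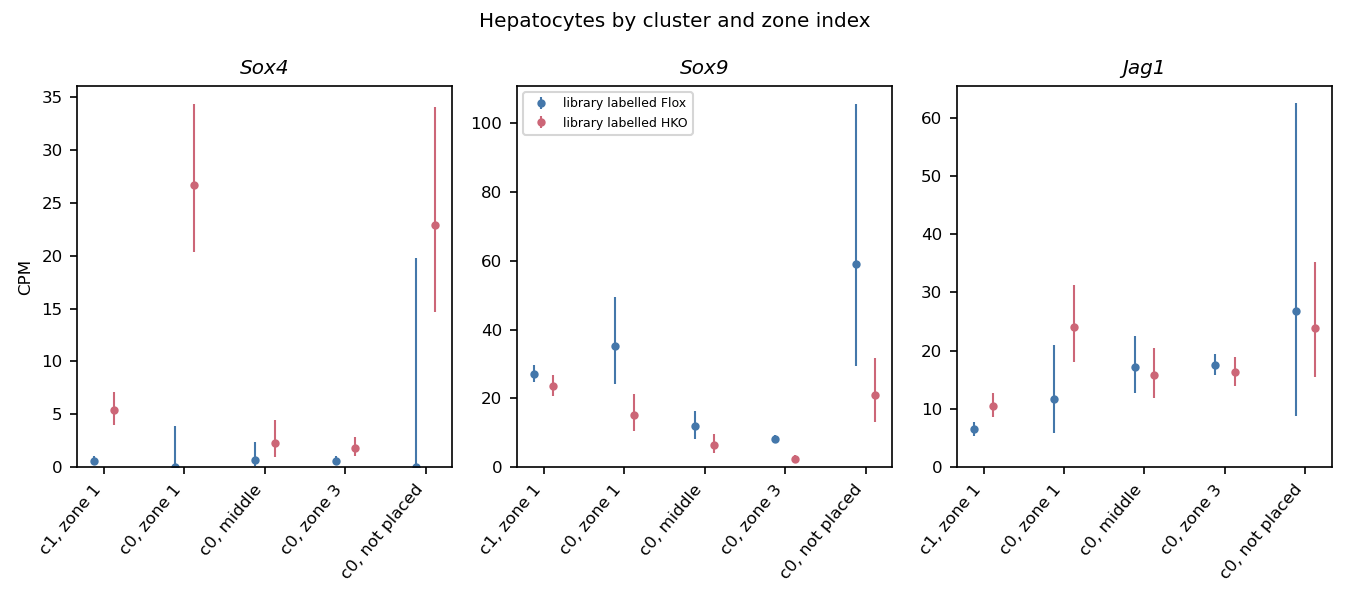
Level (CPM) of *Sox4*, *Sox9* and *Jag1* in hepatocytes divided by cluster (c0 or c1) and zone index, for both libraries, with exact Poisson 95% intervals. HKO-labelled *Sox4* is at 26.7 CPM in c0 nuclei placed in zone 1 and at 1.82 CPM in c0 nuclei placed in zone 3.

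Of 31 other Notch pathway genes 18 had enough UMIs in hepatocytes, 2 at least 2-fold lower and none 2-fold higher in the HKO-labelled library, with a median log2 ratio of -0.09 (4.13% and 4.23% of all genes with enough UMIs). *Maml3*, a coactivator of the RBPJ complex, went from 64.2 to 28.1 CPM (0.438), and the receptor gene *Notch4*, best known from endothelium, from 5.21 to 2.35 CPM (0.451). The highest ratios were those of the ligand gene *Dll1* (1.43) and the receptor gene *Notch1* (1.40). In cholangiocytes, where 2.31% of all genes were 2-fold lower and 2.7% higher, 8 had enough UMIs and none was past 2-fold, from the protease gene *Adam10* (0.504), which cleaves the receptor, and *Maml3* (0.832) to *Rbpj* (1.48) and *Numb* (1.64), a Notch inhibitor.

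The biliary list of 21 other genes had 10 with enough UMIs in hepatocytes, 3 at least 2-fold higher (4.23% of all genes) and 1 lower (4.13%). *Spp1*, the osteopontin gene, went from 11.6 to 29.6 CPM (2.55), *Onecut1*, a factor that hepatocytes also use, from 79.8 to 200.5 CPM (2.51), and *Elf3* from 0.476 to 1.30 CPM (2.73). *Krt23* was lower (0.456), and *Aqp1*, the water channel gene, had a ratio of 0.746. In cholangiocytes 15 had enough UMIs and 1 was past 2-fold, *Spp1*, lower at 13700 and 6832 CPM (0.498, interval 0.477 to 0.520, 2.31% of all genes lower). With TMM factors, a scaling tried for the lists after seeing the data, its ratio was 0.535 and no longer past 2-fold. *Tspan8* had a ratio of 0.589, *Onecut2* 1.23 and *Ehf* 1.55. The ratio of *Spp1* was thus above 1 in hepatocytes and below 1 in cholangiocytes. Cholangiocytes made up 1.56% of Flox-labelled and 5.57% of HKO-labelled nuclei. The part of their RNA in the *Spp1* level of hepatocytes was not tested.

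Of 11 genes of the YAP pathway, which acts beside Notch in biliary reprogramming, 9 had enough UMIs in hepatocytes and 4 were at least 2-fold higher (4.23% of all genes), with none 2-fold lower and a median log2 ratio of 0.64. These were *Tead1*, the DNA-binding partner of YAP (34.6 and 119.5 CPM, 3.45), *Axl* (2.89), *Ajuba* (2.22) and *Ccn2* (2.10), while *Wwtr1* (0.974) and *Amotl2* (0.965) were lowest. In cholangiocytes 6 had enough UMIs and none was past 2-fold, where 2.7% of all genes were 2-fold higher and 2.31% lower. Their ratios ran from *Ccn1* (1.11) and *Yap1* (1.20) to *Tead1* (1.33) and *Ankrd1* (1.66). Of the 5 other daHep markers in hepatocytes, *Nrg1* (6.44), *Anxa2* (2.43) and *Klf6* (2.42) were at least 2-fold higher (4.23% of all genes). *Jun* was at 1.48 and *Gdf15* at 0.808. In cholangiocytes 3 of the daHep markers had enough UMIs, *Klf6* with a ratio of 1.41, *Jun* with 0.984 and *Nrg1* with 51.9 and 46.8 CPM. None was past 2-fold, beside the same 2.7% and 2.31% of all genes.

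After thinning to 1000 UMIs few hepatocytes held more than 1 member. In these nuclei, 1 or more of *Sox4*, *Sox9*, *Krt7*, *Krt19*, *Epcam* and *Cd24a* were found in 1.83% and 2.02% of hepatocytes, and 2 or more in 1 of 5806 and 0 of 4454, which allows up to 0.0674% of the latter. At this depth *Sox4* was expected in 0.0674% and 0.629% of hepatocytes and *Sox9* in 1.64% and 1.31%. Such low shares leave few nuclei to hold both, so these counts do not show whether the genes occur together. Over all 9 members, 2 or more were found in 25 (0.431%) and 28 (0.629%) hepatocytes. Before thinning, 2 and 12 hepatocytes held both *Sox4* and *Sox9*. Among cholangiocytes, 72.4% and 63.2% had 1 or more and 29.9% and 24.4% had 2 or more. The share with 3 or more was 5.22% and 4.48%.

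Over 16 profiles (8 named types in 2 libraries), which share libraries and depth, the genes whose levels followed a member most closely among 13013 genes were found by Pearson correlation of log2(CPM + 1). For *Jag1* they were *Zfp9* (0.907), *Nicn1* (0.888) and *Bcar1* (0.879), for *Notch2* *Supt20* (0.845), *Zcchc7* (0.827) and *Tut4* (0.798), and for *Hes1* *Rdh13* (0.964), *Zfp563* (0.961) and *Zscan12* (0.952). *Sox9* was followed by *4933431E20Rik* (0.943), *Shank2* (0.923) and *Ccdc30* (0.921), and *Sox4* by *2700081O15Rik* (0.902), *Eml1* (0.860) and *Glis2* (0.854). *Epcam* was followed by *Pak6* (0.940), *Nebl* (0.921) and *Kcnk1* (0.906), and *Cd24a* by *Ap1m2* (0.975), *Ap1s3* (0.910) and *Chrnb1* (0.901). The nearest to *Krt7* were *2010300C02Rik* (0.976), *Sema3c* (0.968) and *Gm671* (0.963), and to *Krt19* *Aldh1a2* (0.987), *Pak3* (0.969) and *Sync* (0.969), genes whose levels in the 14 mesothelial nuclei of each library rest on few UMIs.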

How the data were processed

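The values that the authors deposited are UMI counts, not normalized, for the barcodes of 2 libraries made with 10x 3′ chemistry. The submitters' processing notes name Cell Ranger 8.0.1 and GRCm38, and the study's methods state that intronic reads were excluded. Nuclei with at least 300 detected genes were kept, and the highest Scrublet scores (scanpy 1.11.5) were removed at 0.8% per 1000 barcodes, 701 and 920 barcodes. Integration and clustering used Seurat 5.3.0 under R 4.3.3, with 3000 variable features other than the members, 15 components and a resolution of 0.2. Clusters were named from fixed marker lists, with at least 3 markers at 1.5 times the mean of the other clusters. UMIs were summed per type and library and divided by their total (58171337 and 40475938 UMIs were deposited, 51294562 and 34573506 kept).

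Intervals are exact Poisson for CPM, exact conditional binomial for ratios and Clopper-Pearson for shares, and cover counting error only. A gene was called at a ratio of at least 2 or at most 0.5 with at least 50 UMIs over both groups. Log2 ratios carry a pseudocount of 1 CPM. Detection was also taken after thinning each nucleus to 1000 UMIs, leaving out 16 and 21 hepatocytes and 1 and 100 cholangiocytes that were shallower. Named genes are the 9 members, of each list the 2 highest and 2 lowest ratios and all past 2-fold, and the 3 genes most like each member. Members and lists were chosen with earlier results of these data known. Alternatives were doublets kept, other depth and UMI limits, TMM factors (edgeR 4.0.16), other clusterings, other rules for the types and zones, subtraction of cholangiocyte RNA and a pseudocount of 5 CPM. Rules for naming clusters were settled after the clusters had been seen.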

Additional observations from a re-analysis of the deposited data

Results flagged for a closer look

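*Hes1* had ratios of HKO-labelled to Flox-labelled CPM on opposite sides of 1, beyond counting error, in 2 cell types. It was higher in hepatocytes (1.14, interval 1.07 to 1.21) and lower in macrophages (0.700, interval 0.533 to 0.919, 104 and 119 UMIs). In hepatocytes its log2 ratio of 0.185 lay between the quartiles of all genes with enough UMIs, -0.28 and 0.236. The difference between the types was not tested, since each genotype had 1 library.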

How the results depend on the processing

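The count of members past 2-fold in cholangiocytes (1) was 0 with TMM factors, 2 with at least 20 UMIs, 3 with no minimum of UMIs and 4 when cholangiocytes were all nuclei with at least 3 UMIs of *Pkhd1*, *Fgfr3* and *Rassf9*, a rule under which 219 of 344 and 228 of 645 nuclei came from the hepatocyte clusters and the log2 ratio of *Epcam* turned to 0.49. With no minimum of UMIs the count in hepatocytes went from 1 to 3, and those between zones from 2 to 4 in either library. The share of all genes past 2-fold was not counted under any of the alternatives, so their counts are a description only. With the 2 hepatocyte clusters as zones, an alternative chosen after seeing the data, the count in the HKO-labelled library was 1 and the log2 ratio of *Sox4* between zones turned to 0.15. Of the other values under an alternative, 37 counts or thinned shares were kept, counts within 1.5 times their value and shares within their interval. Of the log2 ratios of single members, 211 lay in their interval or moved by no more than the distance from its middle to its ends. The other 21 did neither. These intervals carry no pseudocount while the log2 ratios carry 1 CPM, so a ratio of a low gene can lie outside its own interval. *Sox4* with doublets kept (6.67 against 10.5) was among the 211, outside its interval. Of the list genes that are not members, only *Spp1* in cholangiocytes lost its place past 2-fold with TMM factors (0.535), a scaling tried after seeing the data. Subtracting cholangiocyte RNA scaled by *Pkhd1*, *Fgfr3* and *Rassf9* left no *Sox4* in hepatocytes of either library and 6.29 and 0.0 CPM of *Sox9*, where scaling by *Rassf9* and *Cftr*, also added after seeing the data, kept the *Sox4* call. The thinned share of HKO-labelled hepatocytes with *Sox4* (0.516%) ranged up to 0.8125% under another clustering seed, which also drew another thinning. No paired analysis was possible because each genotype had 1 library. Ratios of genes with few UMIs are limited by depth, above all in the 135 Flox-labelled cholangiocytes.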
